A study of Mus musculus with 2 samples.

Results

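Long non-coding RNA (lncRNA) genes with a peak of histone H3 trimethylated at lysine 27 (H3K27me3) at their start, and with no part of that peak at the start of a protein-coding gene, were examined in MEL cells. MEL is an immortalized mouse erythroleukaemia line, described in the labels as an analog of the human leukaemia line K562. ChIP-seq against the mark was run on 1 group of 2 biological replicates, for which the labels name no treatment, and every comparison here is between regions of the genome. A peak was taken when it overlapped, by at least 1 bp, the 1 kb on either side of the 5' end of an autosomal gene of GENCODE type lincRNA, antisense or processed_transcript, and no such window of a protein-coding gene. Of the 38300 peaks that the authors deposited as replicated, 37152 lay on autosomes, and 357 of these (0.961%) met the rule. They lay at 241 of 8875 autosomal lncRNA genes (2.72%), which are called marked. Another 26 lncRNA starts had only peaks that also reached a coding window, and these were not counted as marked. Read depth is unknown, because the peak lists carry no read counts, and the labels do not state that the replicates were separate cultures.

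H3K27me3 is written by Polycomb repressive complex 2 and is known from silent developmental genes, where it can spread over long domains. In mammals its placement has been tied to stretches rich in CpG dinucleotides. The label lincRNA is meant for genes between protein-coding genes, and antisense for genes that overlap a coding gene on the opposite strand. The class processed_transcript holds spliced non-coding transcripts given neither label. The labels are not strict, since the lincRNA genes 2010300F17Rik and Gm13780 start inside coding genes on the opposite strand. All 3 types of gene may share the chromatin of a coding neighbour. Some lncRNAs, such as Hotair, have been described in human cells as binding Polycomb proteins. To describe the line, 18 autosomal erythroid genes, among them the globin genes Hba-a1, Hba-a2, Hbb-bs and Hbb-bt and the factors Klf1 and Tal1, were examined. Of these 1 had a replicated peak within 1 kb of its start, Slc4a1, with 410 bases covered, beside 3.08% of all autosomal coding starts, so the count does not test the label.

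The peaks at the marked starts were mostly poor in CpG. To show this, the central 120 bases of the widest such peak are given for 6 of the genes described next, on the plus strand of GRCm38 (mm10), with each CG dinucleotide in capitals. They come from chr15:102947179-102947298 at Hotair, chr15:102798218-102798337 at Gm36560, chr11:96745193-96745312 at 2010300F17Rik, chr2:167553080-167553199 at Gm11476, chr2:119326958-119327077 at Gm14207 and chr15:97765664-97765783 at Rapgef3os2.
Hotair: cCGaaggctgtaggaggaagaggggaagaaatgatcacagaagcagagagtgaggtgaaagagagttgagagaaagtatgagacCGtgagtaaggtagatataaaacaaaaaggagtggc
Gm36560: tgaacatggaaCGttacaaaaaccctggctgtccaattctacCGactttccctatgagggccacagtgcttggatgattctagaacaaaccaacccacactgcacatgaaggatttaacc
2010300F17Rik: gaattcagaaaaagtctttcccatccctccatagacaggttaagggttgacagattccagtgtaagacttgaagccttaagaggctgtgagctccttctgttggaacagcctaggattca
Gm11476: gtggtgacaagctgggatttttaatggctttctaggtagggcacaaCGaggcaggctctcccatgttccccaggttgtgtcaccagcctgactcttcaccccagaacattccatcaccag
Gm14207: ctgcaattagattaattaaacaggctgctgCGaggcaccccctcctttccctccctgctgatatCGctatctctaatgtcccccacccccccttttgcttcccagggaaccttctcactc
Rapgef3os2: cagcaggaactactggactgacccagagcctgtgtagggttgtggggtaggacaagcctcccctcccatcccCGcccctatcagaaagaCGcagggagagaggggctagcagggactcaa

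These stretches held from 0 CG dinucleotides, at 2010300F17Rik, to 2, at Hotair, Gm36560, Gm14207 and Rapgef3os2. The peak used at 2010300F17Rik reaches into the window but is centred 2183 bp from the start, so its stretch lies outside the window. Over all 357 peaks at lncRNA starts the central 120 bases held a median of 1 CG, and 33.3% held none. The other 36795 autosomal replicated peaks also had a median of 1, and 39.9% held none. Over the whole peak the median GC content was 45.4% at lncRNA starts and 43.1% in the other peaks, and the median ratio of observed to expected CpG was 0.175 at lncRNA starts and 0.165 in the others. The windows around the starts differed more. A CpG ratio of at least 0.6, which CpG islands reach, was found in 2.90% of the 241 marked lncRNA windows and in 11.4% of the 8608 lncRNA windows without a peak. Among coding starts it was found in 13.3% of the 641 marked windows and in 35.7% of the 20166 without a peak. Within both kinds of gene a smaller share of the marked windows was thus CpG-rich. For lncRNA genes the rule itself may fix part of this. It left out 26 starts whose only peaks also reached a coding window, while windows near coding starts stayed among those without a peak. These shares are descriptions of sequence and were not tested.

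More lncRNA windows were marked than peaks moved along the chromosomes would give, with no rise in coverage at the start itself. The 241 marked genes compared with a mean of 182 when all peaks of a chromosome were moved along it together, 1000 times, by a circular shift that preserves their widths and spacing (95% of shifts between 155 and 212; ratio 1.33; two-sided permutation p = 0.0020, the smallest that 1000 shifts can give). Among lincRNA genes 150 of 5209 were marked (2.88%), against 109 in the shifts (88 to 131; adjusted over the 3 types, permutation p = 0.0060). Among processed_transcript genes 25 of 753 were marked (3.32%), against 14.4 (7 to 22; adjusted permutation p = 0.030), a call lost in 8 of 12 alternative settings with the direction kept (adjusted permutation p from 0.066 without chromosome 11 to 0.61 in the list of replicate 2, at 38 against 34.7 in the shifts). Among antisense genes 66 of 2913 were marked (2.27%), against 58.8 (44 to 75; adjusted permutation p = 0.41), a difference within the spread of the shifts that passed the threshold with windows of 2.5 kb on either side (118 against 92.2; adjusted permutation p = 0.022). The lincRNA call held in all 12 alternative settings. Whether the 3 types differ from each other was not tested. The excess was not confined to the start, since with 2.5 kb on either side the ratio was 1.46. Replicated peaks covered 0.638% of bases in the 500 bp before lncRNA starts and 0.698% in the 500 bp after. Other bins within 5 kb ran from 0.593% to 0.890%. The shifts could also move peaks into the unsequenced gap that opens a chromosome. With that gap left out the shifts gave a mean of 187 and a ratio of 1.29.

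In the replicated list, with windows of 1 kb, the excess was not shown to be particular to lncRNA genes. Of 20807 autosomal coding genes 641 were marked (3.08%), against 524 in the shifts (446 to 604; permutation p = 0.0080). The coding call was lost in 4 of 12 alternative settings in which the call for all lncRNA starts held: the list of replicate 1 (948 against 862, permutation p = 0.11), the list of replicate 2 (1334 against 1263, p = 0.26), windows of 500 bp (377 against 361, p = 0.63) and at least 50% of the peak inside the window (540 against 479, p = 0.090). To compare the kinds of gene directly, lncRNA windows that touch no coding window and coding windows that touch no lncRNA window were used, here called stand-alone. Of 7342 stand-alone lncRNA starts 226 had a replicated peak (3.08%), and of 19253 stand-alone coding starts 601 did (3.12%). The difference, lncRNA minus coding, was -0.04 percentage points, against -0.20 in the shifts (-0.70 to 0.24; two-sided permutation p = 0.53). With windows of 500 bp in the replicated list the difference was 0.27 points, against -0.15 in the shifts (permutation p = 0.026). In the lists of single replicates the lncRNA share also stood higher relative to the shifts. The difference was 0.44 points in the list of replicate 1 (shifts -0.26, permutation p = 0.030) and 1.48 points in that of replicate 2 (shifts -0.29, permutation p = 0.0020).

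**Figure D1:**
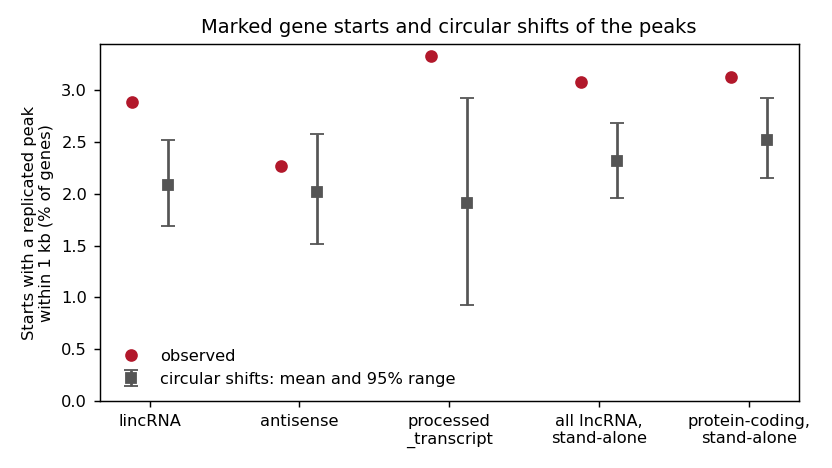
Share of gene starts with a replicated peak within 1 kb (vertical axis, percent of genes of each kind). Red points are the observed shares and grey squares the mean of 1000 circular shifts, with bars spanning 95% of shifts. The first 3 columns count only peaks that touch no coding window, the last 2 compare stand-alone lncRNA and coding starts. The observed shares of lincRNA (2.88%), processed_transcript (3.32%) and both stand-alone kinds lie above the bars, and that of antisense genes (2.27%) lies within its bar.

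Gm36560, a lincRNA gene with no described role, had its whole window under the mark. It lies on chromosome 15 from 102797495 to 102819544 on the plus strand. Replicated peaks covered 2001 of the 2001 bases within 1 kb of its start, with 1958 in replicate 1 and 1932 in replicate 2. The start sat under a single peak of 3973 bp (102796292 to 102800264), the widest of the 357, with a signal value of 6.30 and a −log10 q of 4.68. That peak belonged to a domain of 85873 bp, formed by joining neighbouring peaks at gaps of up to 3 kb. The domain overlapped no coding gene, and the nearest coding start, that of Calcoco1, was 75317 bp away with no replicated peak within 1 kb. It was the longest domain at any of the 241 starts.

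Hotair, the lncRNA transcribed against the HoxC cluster between Hoxc12 and Hoxc11, was marked at its start. It lies on chromosome 15 from 102944062 to 102947730 on the minus strand. Within 1 kb of the start 1514 bases were covered by replicated peaks, with 1210 in replicate 1 and 1042 in replicate 2. These bases belonged to 3 peaks, of 676, 378 and 485 bp. Their −log10 q was 0.980, 0.533 and 1.47, so none reached 2. The 3 peaks belonged to a domain of 7165 bp (102946901 to 102954065), with replicated peaks over 60.5% of it, replicate 1 peaks over 56.1% and replicate 2 peaks over 47.6%. The domain ran from the start of Hotair towards Hoxc11, a homeobox gene of posterior patterning, and reached the window of its start 6697 bp away, where 579 bases were covered. At the Hoxc11 start the replicates were close, with 576 bases in replicate 1 and 555 in replicate 2.

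**Figure D2:**
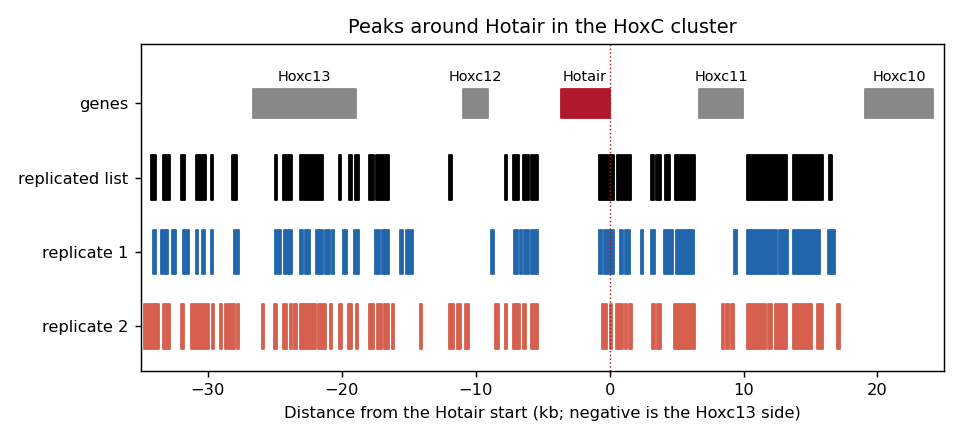
Peaks around the start of Hotair, as distance from that start in kb (horizontal axis), with the lower numbers towards Hoxc13. Grey and red bars in the upper row are gene bodies, and the rows under it are the replicated list and the own lists of replicates 1 and 2. All 3 lists have peaks over the Hotair start and between it and Hoxc11. The bodies of Hoxc11 and Hoxc10 hold no replicated peak, but the own lists of both replicates have peaks inside Hoxc11.

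Several of the other most covered lncRNA starts lay inside or beside coding genes of known function. The lincRNA 2010300F17Rik (chromosome 11, 96712982 to 96747436, minus strand) runs against Skap1, an adaptor of T-cell receptor signalling, and starts inside it. Its window had 1927 bases covered, with 1609 in replicate 1 and 1832 in replicate 2, in a domain of 38362 bp. The start of its nearest coding neighbour, Snx11, 30123 bp away, had no replicated peak. The mark thus covered the inside of Skap1 at this lncRNA start and left the nearest coding start without a peak.

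Gm11476, a processed_transcript gene (chromosome 2, 167553314 to 167607845, plus strand), starts 15119 bp from the start of Snai1, a repressor that drives the transition of epithelial to mesenchymal cells. Its window had 1879 bases covered, with 1384 in replicate 1 and 1648 in replicate 2, and Snai1 had no replicated peak at its start. Gm11961, an antisense gene (chromosome 11, 4620275 to 4630011, minus strand), had 1853 bases covered, with 1548 in replicate 1 and 1126 in replicate 2. Its neighbour Ascc2, 7736 bp away in the head-to-head orientation, had no replicated peak at its start. Gm29018, an antisense gene on chromosome 1, had 1680 bases covered (1516 in replicate 1 and 1310 in replicate 2), 40702 bp from the unmarked start of Stradb. In these 3 cases the lncRNA start was marked and that of its nearest coding gene was not.

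At Gm42765, Gm15461 and Gm13780 the host gene was marked at its own start as well. Gm42765 (antisense type, chromosome 5, 30529457 to 30543830) had 1766 bases covered, with 1401 in replicate 1 and 1634 in replicate 2. It starts inside Cib4, of the calcium and integrin binding family, in a domain of 39423 bp, and the start of Cib4 had 1058 bases covered. Gm15461 (antisense type, chromosome 5, 30817977 to 30822612) had 1355 bases covered, with 853 in replicate 1 and 1322 in replicate 2. Its host Mapre3, a protein of growing microtubule ends, had 1181 bases covered at its start. Gm13780 (lincRNA, chromosome 2, 92043373 to 92096042) had 1409 bases covered, with 1148 in replicate 1 and 1147 in replicate 2, and its host Phf21a, a component of a histone demethylase co-repressor complex, had 1033 bases covered 2925 bp away.

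At Dll4 and Rapgef3 most or part of the covered bases came from peaks shared with the coding start. Gm14207 (processed_transcript, chromosome 2, 119321187 to 119326194, minus strand) starts 410 bp from Dll4, an endothelial Notch ligand. Its window had 1356 bases covered, with 1393 in replicate 1 and 1062 in replicate 2, but 199 of them came from the lone peak that does not reach the window of Dll4. The start of Dll4 itself had 1171 bases covered. Rapgef3os2 (antisense type, chromosome 15, 97766549 to 97768713, plus strand) lies against Rapgef3, the cAMP-activated exchange factor also named Epac1, 1423 bp from its start. Its window had 1369 bases covered, 903 of them from peaks away from the coding window, with 1149 in replicate 1 and 992 in replicate 2. Rapgef3os1, in the same domain of 12847 bp, had 209 bases covered, and Rapgef3 had 442 at its start. Among all 241 marked genes 7 had such shared bases in their window.

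Of the remaining genes named by the rule, 4930441J16Rik had 1496 bases (1146 in replicate 1 and 1329 in replicate 2) at 271718 bp from its nearest coding start, that of Lnpk, and Gm11523 had 1445 (1321 and 1176 in replicates 1 and 2) in a domain of 30612 bp that overlapped no coding gene. Gm49313 had 1386 bases, with 1613 in replicate 1 and 935 in replicate 2. C030014I23Rik had 1355, with 454 in replicate 1 and 989 in replicate 2. At both genes the replicates' extents thus lay further apart than at Gm36560. There nearly the whole window was covered in each replicate, which leaves little room for a difference. Gm36840, against the phospholipase gene Plb1, had 1095 bases in a domain of 32643 bp. Gm47214 had 582 bases, with 1052 in replicate 1 and 534 in replicate 2, in a domain of 32964 bp. Its nearest coding gene Izumo1r, the egg receptor for sperm, was marked with 324 bases, none of them in the list of replicate 1.

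**Figure D3:**
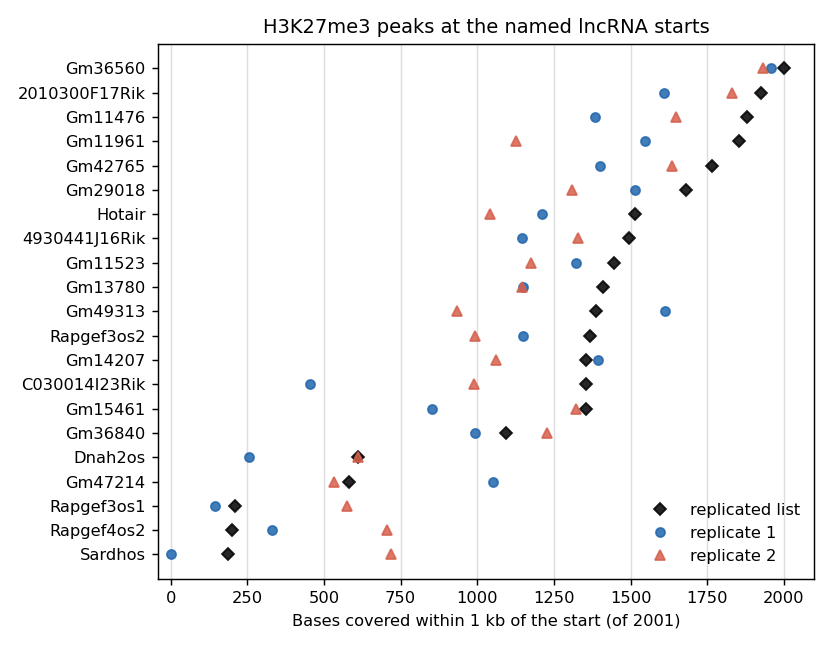
Bases covered within 1 kb of the start (horizontal axis, of 2001 bases) at the lncRNA genes named by the rule, ordered by the replicated list. Diamonds are the replicated list, circles replicate 1 and triangles replicate 2. The replicated list covers 1355 bases or more in the upper 15 genes, and Sardhos at the foot has 0 in replicate 1 and 718 in replicate 2.

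Most marked starts carried far less. The median over the 241 genes was 373 covered bases within 1 kb of the start in the replicated list, with quartiles of 194 and 648, 344 in replicate 1 and 467 in replicate 2. At 25 genes 1000 bases or more were covered and at 63 under 200. Counting only peaks that reach no coding window, 153 genes had a single peak, 61 had 2 and 27 had 3 or more. At the edge of the rule, AC147229.1 was included with 7 bases and Gm48847 with 14, while Gm30122 and Gm8075 were left out with the nearest peak 3 bp beyond the window. Dlx4os, opposite the homeobox gene Dlx4, was left out by 9 bp, although 2208 covered bases lay less than 5 kb away.

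Each marked gene had a peak in the window in at least 1 replicate's own list. Replicate 1 had a peak at 215 of the 241 (background 4.78% of all lncRNA starts) and replicate 2 at 229 (background 7.50%), with 203 in both. The replicated list was made from these lists, so this is not separate support. Bases covered in replicate 1 and replicate 2 correlated across the 241 genes at 0.643 (Pearson's r) and 0.498 (Spearman's rho). These genes are not independent replicates, and both lists were called with the same control.

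No difference in strength or extent was detected between the peaks at lncRNA starts and shifted peaks. They overlapped both replicates' own lists in 72.8% of cases, against 73.3% among the peaks that met the rule in the shifts (67.9% to 78.7%; adjusted over 4 measures, permutation p = 0.88). Their median width was 304 bp, against 287 bp (266 to 310; adjusted permutation p = 0.56). A −log10 q of at least 2 was reached by 14.0%, against 11.9% (7.92% to 16.0%; adjusted permutation p = 0.68). Of the peaks 19.3% lay in domains of 10 kb or more, against 20.1% (13.1% to 28.5%; adjusted permutation p = 0.88). None of the 4 measures passed the threshold, and the intervals leave room for differences of several percentage points in the 3 shares. The 241 genes lay in 235 domains, 73 of the genes in a domain of a lone peak and 34 in one of 10 kb or more.

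The coding neighbours of marked lncRNA genes were marked less often than the shifts gave, and this call did not hold in every setting. The nearest coding start had a replicated peak for 29 of the 241 marked genes (12.03%), against 1.73% of the 8608 lncRNA genes without a peak. Since peaks cluster, a marked neighbour is common in the shifts too, where the mean was 20.8% (14.2% to 27.5%; two-sided permutation p = 0.014). The call was lost in 4 of 12 alternative settings: with −log10 q of at least 2 (8.89% against 9.21%, permutation p = 0.91), in the upper 50% of peaks by signal value (10% against 16.3%, p = 0.092), with windows of 500 bp (11.2% against 17.1%, p = 0.11) and without chromosome 11 (12.1% against 18.6%, p = 0.060). Marked lncRNA genes also lay nearer to coding genes than in the shifts, with a median distance of 26315 bp, against a mean of medians of 41833 bp (30102 to 57219), a comparison added after the data were seen. Its part in the lower share was not tested.

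The share of marked neighbours was highest at short distances. Within 5 kb, 13 of 29 marked lncRNA genes had a marked nearest coding start (44.8%), against 13 of 1960 lncRNA genes without a peak (0.663%). At this range windows overlap or nearly do, so the choice of genes fixes part of the contrast. From 5 to 50 kb the counts were 13 of 134 (9.70%) for marked genes and 88 of 2982 (2.95%) for genes without a peak, and at 50 kb or more 3 of 78 (3.85%) and 48 of 3666 (1.31%). By type, 17 of 66 marked antisense genes had a marked coding neighbour, as did 9 of 150 lincRNA genes and 3 of 25 processed_transcript genes. The share by type was not computed for genes without a peak. By orientation, 19 of 64 genes on the opposite strand but not head to head did (29.7%), against 1.56% of such genes without a peak. Of divergent genes 6 of 90 did (6.67%), against 1.91%, and on the same strand 4 of 87 (4.60%), against 1.74%. Distance to the coding start was not held equal between types or orientations. No test was attached to these counts.

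**Figure D4:**
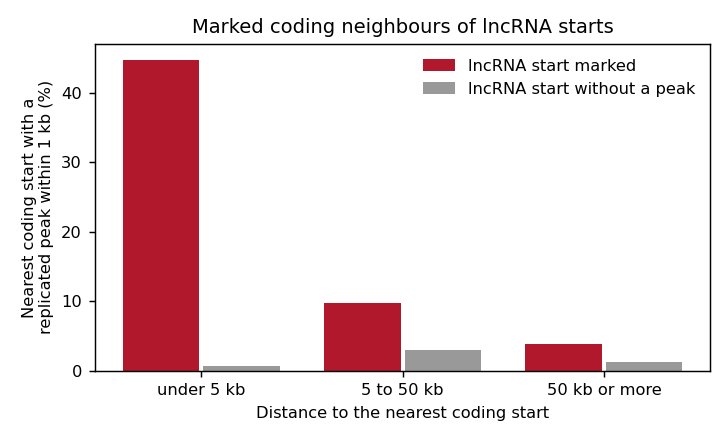
Share of lncRNA genes whose nearest coding start has a replicated peak within 1 kb (vertical axis, percent), by the distance to that start (horizontal axis). Red bars are marked lncRNA genes and grey bars lncRNA genes without a peak. The red bars fall with distance, at 44.8%, 9.70% and 3.85%, above grey bars of 0.663%, 2.95% and 1.31%.

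The 29 pairs held 28 coding genes of mixed function. The 5 with the most bases covered within 1 kb were Rhbg, an ammonium transporter, with 1753 (beside AI849053, 50114 bp away), Cma1, a mast cell chymase, with 1750 (beside Gm48925, 7080 bp), Fam186a with 1692 (beside Gm21917, 35350 bp), the homeobox gene Meox1 with 1638 (beside Gm11551, 8137 bp) and Amotl1, of the angiomotin family, with 1344 (beside Gm7607, 17966 bp). The replicates differed at Meox1, where replicate 1 had 1686 covered bases and replicate 2 had 879, and at Amotl1, where replicate 1 had 697 and replicate 2 had 1627. Others, named after their values were seen, were Hes1, a repressor downstream of Notch, with 446 bases (beside 4632428C04Rik), the ephrin gene Efna3 with 495 (beside Gm15998), the ubiquitin ligase gene Lnx1 with 860 (314 bp from Gm15984) and Ddc, the enzyme that makes dopamine and serotonin, with 356 (beside 1700042O10Rik). At the other end Acvrl1, a receptor of the TGF-beta family, counted as marked with 6 bases, of which the list of replicate 1 had none.

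Most marked lncRNA starts lay outside coding genes. The start was in no coding gene for 182 of 241 marked genes (75.5%), against 65.6% of lncRNA genes without a peak, and antisense inside a coding gene for 56 (23.2%), against 32.1%. The rule itself may fix part of both contrasts. It left out 26 starts whose only peaks also reached a coding window, while starts inside or beside coding genes stayed among those without a peak. Neither contrast was tested. The domain that held the start overlapped no coding gene body for 175 of the 241, and for 20 it reached a marked coding start. Genes without a peak have no domain at their start. The same shares were not computed for the domains of other replicated peaks or in the shifts. The 2 counts therefore do not set the marked genes apart from other peaks. The median length was 7740 bp for marked genes and 7141 bp for those without a peak, and the median number of exons, in the transcript with the most, was 3 in both. Most marked genes, 224 of 241, carry only a provisional symbol of the Gm, Rik or clone kind, so no role can be given for them. The share of such symbols among all lncRNA genes was not computed, so this count sets the marked genes apart from no others.

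Among the lncRNA genes listed here by role few were marked. The lists do not hold every named lncRNA gene: Rubie, Platr9 and Platr14 were marked and are in none of them. In the Hox clusters 1 of 11 was, Hotair. Of 8 imprinted lncRNA genes, which include Meg3, Airn and Kcnq1ot1, 0 were marked and none had a covered base within 5 kb of its start. The same held for 19 genes in constant use or hosting small nucleolar RNAs, among them Malat1, Neat1 and Gas5. Of 19 lncRNA genes beside developmental regulators 0 were marked, and 4 of them had covered bases within 5 kb: Dlx4os with 2208, Lhx1os with 531, Vax2os with 230 and Sox2ot with 188. Of 11 blood and immune lncRNA genes and of 10 microRNA hosts 0 were marked. Against a background of 2.72%, lists of this size would hold less than 1 marked gene on average, so a count of 0 shows no shortfall.

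Of 282 lncRNA genes named for a coding gene with the suffix os, as or ot, 5 were marked, or 1.77%, against 2.72% of all lncRNA starts (Rapgef3os2, Dnah2os, Rapgef3os1, Rapgef4os2 and Sardhos). Dnah2os, against the dynein gene Dnah2, had 612 bases covered, with 255 in replicate 1 and 612 in replicate 2. Its nearest coding start was that of Kdm6b, a demethylase that removes H3K27me3, 34873 bp away and without a replicated peak. Rapgef4os2 had 200 bases covered, with 330 in replicate 1 and 705 in replicate 2. Sardhos had 186 bases in the replicated list and 718 in replicate 2, and the list of replicate 1 had no peak within 5 kb. Rapgef3 and Rapgef4, the hosts of 3 of these 5, both encode cAMP-activated exchange factors for Rap proteins. Rapgef3os1 and Rapgef3os2 share both host and domain, so they are not separate cases. No share was computed for other lncRNA genes with such hosts.

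Coverage varied less around lncRNA starts than around coding starts, over bins of 500 bp within 5 kb: from 0.593% to 0.890% for lncRNA genes and from 0.514% to 1.35% for coding genes. In the 500 bp after the start the replicated list covered 0.698% of bases over 8875 lncRNA genes, while the bin farthest upstream had 0.673%. For 20807 coding genes the same bins had 0.514% after the start and 1.35% upstream. In the single replicates, after the start and farthest upstream, lncRNA genes had 0.808% and 0.833% in replicate 1 and 1.14% and 1.25% in replicate 2, and coding genes 0.604% and 1.62% in replicate 1 and 0.929% and 2.05% in replicate 2. Of the 357 peaks at lncRNA starts 180 were centred downstream of the nearest lncRNA start and 177 upstream. No test was attached to the profiles.

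**Figure D5:**
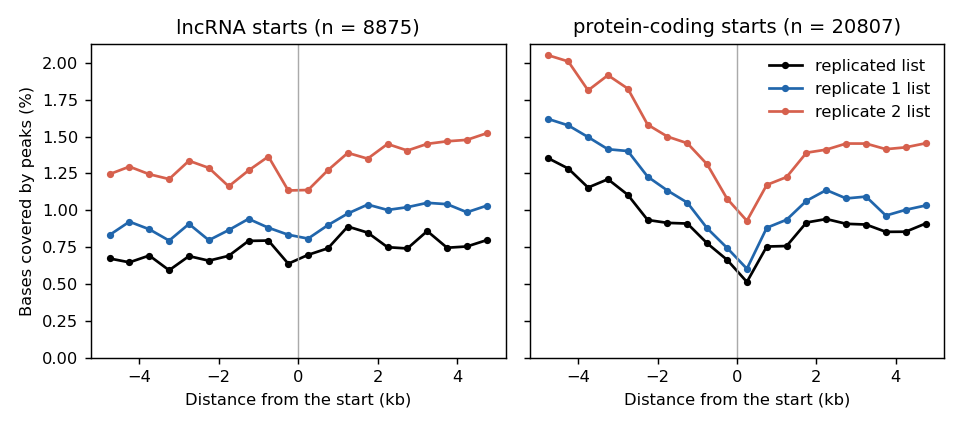
Share of bases covered by peaks (vertical axis, percent) in bins of 500 bp within 5 kb of the start (horizontal axis, kb, negative upstream), for 8875 lncRNA genes on the left and 20807 coding genes on the right. Black is the replicated list, blue replicate 1 and red replicate 2. The lncRNA curve of the replicated list stays between 0.593% and 0.890%, and the coding curves are lowest in the 500 bp after the start, at 0.514% in the replicated list.

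By chromosome the most marked lncRNA genes lay on chromosome 11, with 35 of 477 (7.34%), against 27.4 in the shifts (16 to 39; permutation p = 0.23). That chromosome also has the densest peaks, with 1.86% of its length covered. Chromosome 15, which holds Gm36560, Hotair and the Rapgef3 pair, had 21 of 344 (6.10%), against 10.2 (3 to 19; permutation p = 0.018, adjusted over 19 chromosomes p = 0.31). Chromosome 8 had 3 of 515, against 3.86 in the shifts (0 to 9; permutation p = 0.96). No chromosome passed after adjustment, and without chromosome 11 the excess over shifts was 1.33-fold.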

How the data were processed

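The authors deposited peak lists on mm10: 1 per replicate, each called with 1 shared control alignment, a pooled list, and the replicated list derived from those 3, per the deposited text descriptions. For the aligner, the caller and the rule of that derivation, the answer is: not given in the sources used here. The deposited columns are a signal value, which is a score of undefined scale, and −log10 p and −log10 q per peak; the lists admit weak peaks. The offset of each peak's point source was not used. A list on mm9 was not used here, since no mm9 annotation was at hand.

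Gene starts were the outermost 5' ends in GENCODE mouse release 21 (GRCm38), and sequences came from the NCBI copy of that build. Covered bases were counted on the union of peaks, and domains joined peaks within 3 kb. Counts and shares were compared with 1000 circular shifts per chromosome (two-sided permutation p, Benjamini-Hochberg adjustment where stated). The code was tested on simulated data. Python 3.11.15, numpy 2.4.6 and pandas 2.3.3 were used. Named genes were the 15 whose windows had most covered bases, the leading 3 of each type, the 5 in the longest domains and the marked members of the lists, with marked nearest coding genes and the 5 of these most covered. Members and lists were chosen with earlier results of these data known.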

Additional observations from a re-analysis of the deposited data

How the results depend on the processing

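The excess of marked lncRNA starts over shifts kept its direction and its call in all 12 alternative settings, at ratios from 1.28 to 1.64. The count itself moved with the list and the window, from 241 to 378 in the pooled list, 45 with −log10 q of at least 2, 160 in the upper 50% by signal value and 434 with 2.5 kb on either side. In the own lists of single replicates it was 392 (replicate 1) and 619 (replicate 2). The difference between stand-alone lncRNA and coding starts passed the threshold with 500 bp on either side (0.27 percentage points, permutation p = 0.026) and in the lists of replicates 1 and 2 (0.44 and 1.48 points). The lower share of marked coding neighbours lost its call with −log10 q of at least 2 (8.89% against 9.21% in the shifts), in the upper 50% by signal value (10% against 16.3%), with 500 bp (11.2% against 17.1%) and without chromosome 11 (12.1% against 18.6%). The call for processed_transcript starts was lost in the pooled list (31 starts), with −log10 q of at least 2 (4), in the upper 50% (15), with 500 bp (16), with 50% of the peak inside (20), without chromosome 11 (19) and in the replicates' own lists (32 to 38). That for coding starts was lost with 500 bp (377), 50% inside (540) and in the own lists (948 to 1334), and antisense starts gained one with 2.5 kb (118). The causes were not tested. Of 2 alternatives added after the data were seen, the lower neighbour share kept its call among lncRNA windows that touch no coding window (9.33% against 18.5%) and with the nearest coding start over 5 kb away (7.55% against 16.8%). The 4 measures of the peaks passed the threshold under no alternative in which they could be computed. The overlap with both replicates was not computed for their own lists, nor the share with high q where that was the filter. The share in domains of 10 kb or more was 2.80% with joining within 1 kb and 61.1% within 10 kb. Depth is unknown, so absence of a peak does not show absence of the mark.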

Other observations

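A pair of marked lncRNA genes, chosen after their values were seen, lay in long domains while their nearest coding start had no replicated peak. Gm28401, whose nearest coding start is that of Meis1, a cofactor of Hox proteins, 262228 bp away, had 1002 bases covered within 1 kb of its start, with 1223 in replicate 1 and 1461 in replicate 2, in a domain of 22168 bp. The other marked genes nearest to Meis1, 8430419K02Rik and Gm12023, lay in domains of 1291 and 3479 bp. Gm11535, 16765 bp from the start of Hoxb13, had 1229 bases covered, with 1254 in replicate 1 and 898 in replicate 2. Its domain spanned 29770 bp and overlapped Ttll6, the coding gene beside the HoxB cluster.

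Mir17hg, the host transcript of the miR-17 to miR-92 cluster, had no peak within 1 kb of its start in any of the replicated list and the replicates' own lists. Within 5 kb replicated peaks covered 1180 bases, replicate 1 peaks 1230 and replicate 2 peaks 1086. Dhx58os and Ccdc42os, named for the coding genes Dhx58 and Ccdc42, had 2439 and 2374 covered bases within 5 kb and none within 1 kb in the replicated list.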
